A study of Sus scrofa with 15 samples.

Results

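The genes of the hepatic urea cycle, with the mitochondrial glutaminase that feeds it, were examined in the livers of piglets given lipopolysaccharide (LPS) or saline. A list of 10 gene symbols was matched to the pig Ensembl identifiers of the deposited count table, and 9 of them had a row among the 31908 genes of the table: CPS1, OTC, ASS1, ASL, ARG1, ARG2, NAGS, SLC25A15 and GLS2. The tenth, GLUL, which encodes glutamine synthetase, could not be linked to a pig Ensembl identifier with the gene tables used here, so its row, if the count table holds 1, was not analysed here. All 9 genes passed the filter on low counts and were among the 12774 genes tested.

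The animals were growing male Duroc x Large White x Landrace piglets. LPS was injected intraperitoneally at 80 μg/kg, the CON group was given sterile saline, and the liver was taken 4 h later. The libraries are the input fractions of an m6A immunoprecipitation experiment, which means sonicated polyadenylated liver RNA that was set aside before the antibody step, with 3 libraries per group. The labels number the replicates and do not say whether each library is a single piglet, so the errors and p-values below describe the spread between these libraries.

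Ammonia released by amino acid breakdown is toxic, and the periportal hepatocytes of the liver turn it into urea. Carbamoyl phosphate is made from ammonia and bicarbonate inside the mitochondrion, is joined to ornithine to give citrulline, and citrulline is then processed in the cytosol through argininosuccinate and arginine to urea and ornithine, which returns to the mitochondrion. Glutaminase supplies ammonia to the start of this route, whereas glutamine synthetase in the hepatocytes around the central vein captures the ammonia that escapes it.

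Total counts lay between 5927348 and 10351491 in the CON libraries and between 4348478 and 19967417 in the LPS libraries, so counting error was smallest in LPS replicate 3 and largest in LPS replicate 1. Levels are given as CPM, counts scaled to the same library total, after adjustment by edgeR's TMM method, with factors of 0.979 to 1.11 except in LPS replicate 3, where it was 0.735. LPS replicate 2 was closer to the CON libraries than to the rest of its group. Its log2 CPM, compared gene by gene (genes are not independent replicates), correlated at 0.923 to 0.945 with the CON libraries and at 0.852 and 0.907 with the other LPS libraries. Between LPS replicates 1 and 3 the correlation was 0.903. The hepatocyte markers were all present, and the summed level of the 15 genes of that list ranged from 91120 to 108600 CPM in the CON group and from 73540 to 143400 CPM in the LPS group. That sum leans on the acute-phase gene FGB, which reached 44960 CPM in LPS replicate 3 against 8098 to 12720 CPM in the CON libraries. Of the 15 markers 11 had a negative log2 fold change (median -0.30). ALB and CYP2E1 were wholly below the CON range, as were 9.80% of all tested genes. FGB was wholly above it, as were 6.52%. EdgeR called 0 of the 15, beside 0.0548% of all tested genes. At an unadjusted p below 0.05 in edgeR 1 was higher and 0 were lower, beside 6.18% and 6.33%.

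The 9 genes were not all displaced in the same direction. ARG1, NAGS and ASL were higher in each LPS library than in any CON library, OTC was lower in each LPS library than in any CON library, and CPS1, ASS1, SLC25A15, ARG2 and GLS2 overlapped between the groups. ARG1 had the largest difference, 3.36-fold, followed by NAGS at 2.70-fold. No gene of the 9 was called by edgeR's quasi-likelihood test with the requirement of more than a 1.5-fold difference and a p below 0.05 once adjusted over all genes, a rule that called 7 genes, or 0.0548%, of all those tested. At an unadjusted p below 0.05 in the same test 3 of the 9 were higher (ARG1, NAGS and ASL) and 0 were lower, beside 6.18% and 6.33% of all tested genes. The count of genes wholly above the CON range was 3 of 9, where 6.52% of all tested genes lay above it, and the count wholly below it was 1 of 9, where 9.80% lay below. The median log2 fold change of the 9 genes was 0.63, and that of all tested genes was 0.01. Since the genes were chosen with earlier results of these data known, these counts and shares are descriptive only.

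**Figure D1:**
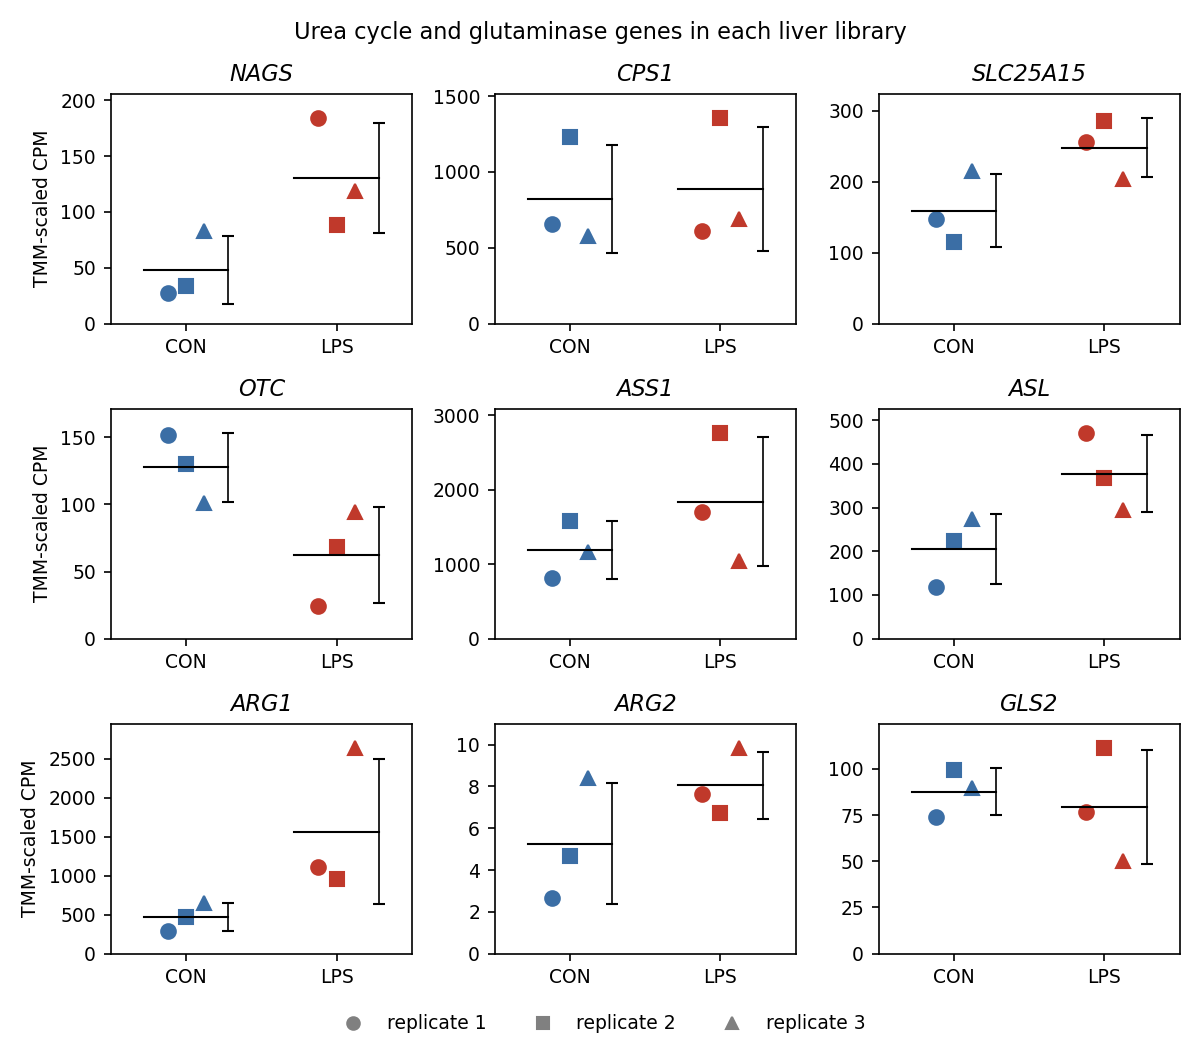
TMM-scaled CPM (vertical axes, from 0) of each gene in the 3 CON libraries (blue) and 3 LPS libraries (red), with marker shapes for replicates and black lines for the mean and SD of each group. The LPS points of ARG1, NAGS and ASL lie above every CON point, those of OTC lie below, and the other 5 genes overlap.

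Other settings called ARG1 and NAGS. DESeq2 called ARG1 alone of the 9 (log2 fold change 1.78, adjusted p = 0.0139), with 2.81% of the genes it gave an adjusted p for called. Without LPS replicate 2, edgeR called ARG1 (2.01, adjusted p = 0.0284), beside 7.20% of all genes tested in that fit. Without the filter on low counts it called ARG1 (1.71, adjusted p = 0.00505) and NAGS (1.39, adjusted p = 0.0201), beside 3.76% of genes. Limma-voom called 0 of the 9 and 0.0470% of all tested genes.

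Entry of ammonia into the cycle depends on NAGS, which makes N-acetylglutamate, and on CPS1, the carbamoyl phosphate synthetase that N-acetylglutamate activates. NAGS (ENSSSCG00000024179, chromosome 12, 19169961 to 19174747, on a genome build that the sources used here do not name) had 27.6, 33.7 and 83.4 CPM in the CON libraries against 184, 88.0 and 119 CPM in the LPS libraries, each in the order of replicates 1, 2 and 3, as in all lists of values that follow. CON replicate 3 came close to LPS replicate 2, and the other CON libraries were far lower. The group means were 48.2 ± 30.6 and 130 ± 49 CPM (± SD, n = 3 each), with a log2 fold change of 1.43 ± 0.48 (SE, edgeR adjusted p = 0.268) with a 95% interval from 0.37 to 2.50. Without CON replicate 3 the log2 fold change was 2.11.

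CPS1 (ENSSSCG00000016159, chromosome 15, 113209999 to 113339078) had 654, 1227 and 579 CPM in the CON libraries against 613, 1354 and 690 CPM in the LPS libraries. Replicate 2 of each group was the high library, and the groups overlapped over nearly their whole range. Its log2 fold change was 0.11 ± 0.43 (SE, edgeR adjusted p = 0.941), and the 95% interval from -0.85 to 1.07 includes differences in either direction. The sign turned when CON replicate 1, CON replicate 3 or LPS replicate 2 was left out. The ratio of NAGS to CPS1 raw counts, which does not depend on the scaling, was 0.0422, 0.0275 and 0.144 in the CON libraries against 0.300, 0.0650 and 0.173 in the LPS libraries. In that ratio LPS replicate 2 lay within the CON range.

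The next step takes place in the mitochondrial matrix, where OTC joins carbamoyl phosphate to ornithine, which is carried in by the ornithine and citrulline exchanger SLC25A15. OTC (ENSSSCG00000012236, chromosome X, 34322298 to 34391837) had 152, 130 and 101 CPM in the CON libraries against 24.0, 68.1 and 94.4 CPM in the LPS libraries. It was the only gene of the 9 with every LPS library below every CON library, although LPS replicate 3 was close to CON replicate 3. The value in LPS replicate 1 rests on 110 counts, the lowest of the 6 libraries. The group means were 128 ± 25 and 62.2 ± 35.6 CPM (± SD, n = 3), which is 2.05-fold lower in the LPS group, a log2 fold change of -1.03 ± 0.46 (SE, edgeR adjusted p = 0.400) with a 95% interval from -2.07 to 0.002. Without LPS replicate 1 it was -0.64, and without LPS replicate 3 it was -1.45.

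SLC25A15 (ENSSSCG00000009373, chromosome 11, 15494385 to 15559312) had 147, 114 and 216 CPM in the CON libraries against 255, 285 and 204 CPM in the LPS libraries. CON replicate 3 lay above LPS replicate 3, and the other libraries were separated by group. Its log2 fold change was 0.64 (SE 0.34, edgeR adjusted p = 0.476, 95% interval from -0.12 to 1.40). OTC and SLC25A15, which serve the same step, thus had differences of opposite sign, neither of which passed the test.

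In the cytosol ASS1 condenses citrulline with aspartate, and ASL splits the product into arginine and fumarate. ASS1 (ENSSSCG00000005701, chromosome 1, 270531589 to 270586361) had 811, 1583 and 1168 CPM in the CON libraries against 1704, 2757 and 1044 CPM in the LPS libraries. LPS replicates 1 and 2 were above the CON range, and LPS replicate 3 was inside it. The log2 fold change was 0.63 (SE 0.43, edgeR adjusted p = 0.582, 95% interval from -0.33 to 1.58), and it was 0.21 without LPS replicate 2.

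ASL (ENSSSCG00000007738, chromosome 3, 16637481 to 16646869) had 118, 223 and 274 CPM in the CON libraries against 471, 369 and 294 CPM in the LPS libraries. The groups were separated by the small gap between CON replicate 3 and LPS replicate 3, and when the libraries were scaled to total counts, a setting chosen after the data were seen, LPS replicate 3 lay inside the CON range with 216 CPM against 269 in CON replicate 3. The means were 205 ± 80 and 378 ± 88 CPM (± SD, n = 3), 1.84-fold apart, with a log2 fold change of 0.88 (SE 0.38, edgeR adjusted p = 0.386, 95% interval from 0.03 to 1.74).

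The last step, the release of urea from arginine, is catalysed by the cytosolic liver arginase ARG1. The gene ARG1 (ENSSSCG00000004195, chromosome 1, 32006038 to 32028986) had 285, 467 and 649 CPM in the CON libraries against 1107, 956 and 2639 CPM in the LPS libraries. All LPS libraries were above all CON libraries under TMM, RLE and total count scaling, and LPS replicate 3 was the highest with 38648 counts. The means were 467 ± 182 and 1567 ± 931 CPM (± SD, n = 3), a log2 fold change of 1.75 ± 0.48 (SE, edgeR adjusted p = 0.218) with a 95% interval from 0.67 to 2.83. Without LPS replicate 3 it was 1.16, and without CON replicate 3 it was 2.08. An exact two-sided permutation test of 1 gene with 3 libraries per group cannot give a p below 0.1, the value it gave for ARG1, NAGS, ASL and OTC.

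Arginase 1 is also known from granulocytes, macrophages and red blood cells of some mammals, so the markers of those cells are given beside it. The summed level of the neutrophil markers, 13 of 19 with a row, ranged from 46.6 to 74.8 CPM in the CON group and from 132 to 369 CPM in the LPS group. Among the markers below the filter, MMP8 was at 0 in all CON libraries and had a mean of 7.75 CPM in the LPS group. The others below the filter had lower means in the LPS group, CD177 with 0.542 against 0.118 CPM and MPO with 0.977 against 0.618 CPM. Of the 10 tested neutrophil markers 8 had a positive log2 fold change (median 1.86). EdgeR called 1 of the 10, S100A8 (5.34, adjusted p = 0.0371), beside 0.0548% of all tested genes. The red blood cell and platelet list, 6 of 10 with a row, ranged from 79.4 to 104.5 and from 100.3 to 369 CPM. The Kupffer cell and macrophage list, 13 of 15 with a row, ranged from 2545 to 4119 and from 2751 to 4247 CPM, but its genes did not share 1 direction. CD14 had 518, 818 and 821 CPM in the CON libraries against 1354, 805 and 2328 CPM in the LPS libraries, whereas 11 of the 13 markers had a negative log2 fold change (median -0.48). VSIG4, MRC1 and TIMD4 were wholly below the CON range, beside 9.80% of all tested genes. Each was lower at an unadjusted p below 0.05 in edgeR, beside 6.33%, and 0 of the 13 were called. No marker with a row in these 3 lists was at 0 in all 6 libraries, and their part in the ARG1 difference was not tested. In whole liver RNA a larger number of cells of a type and more RNA per cell cannot be told apart.

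ARG2 encodes the mitochondrial arginase found mainly outside the liver. ARG2 (ENSSSCG00000002294, chromosome 7, 91343987 to 91385911) had 2.68, 4.69 and 8.41 CPM in the CON libraries against 7.63, 6.71 and 9.83 CPM in the LPS libraries, from 30 to 144 counts per library. The groups overlapped, with a log2 fold change of 0.62 (SE 0.46, edgeR adjusted p = 0.618, 95% interval from -0.40 to 1.65). Of its 1449 exon bases 789 are shared with exons of VTI1B on the other strand, which had 6533 counts in all against 365 for ARG2. Since the sources used here do not state how the counting treated strand, reads of the shared part are uncertain.

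GLS2, the liver glutaminase, releases ammonia from glutamine in periportal mitochondria. GLS2 (ENSSSCG00000000401, chromosome 5, 21806406 to 21820001) had 74.0, 99.4 and 89.8 CPM in the CON libraries against 76.5, 111 and 50.2 CPM in the LPS libraries. The LPS libraries held both the highest and the lowest value, and the log2 fold change was -0.15 (SE 0.35, edgeR adjusted p = 0.898, 95% interval from -0.93 to 0.64). Exons of SPRYD4 and RBMS2 on the other strand share 299 and 141 of its 2845 exon bases. The opposite-strand overlap of CPS1 was smaller, with 110 of 6055 exon bases, and the exons of OTC, ASS1, ASL, ARG1, NAGS and SLC25A15 were not shared with another row of the table.

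**Figure D2:**
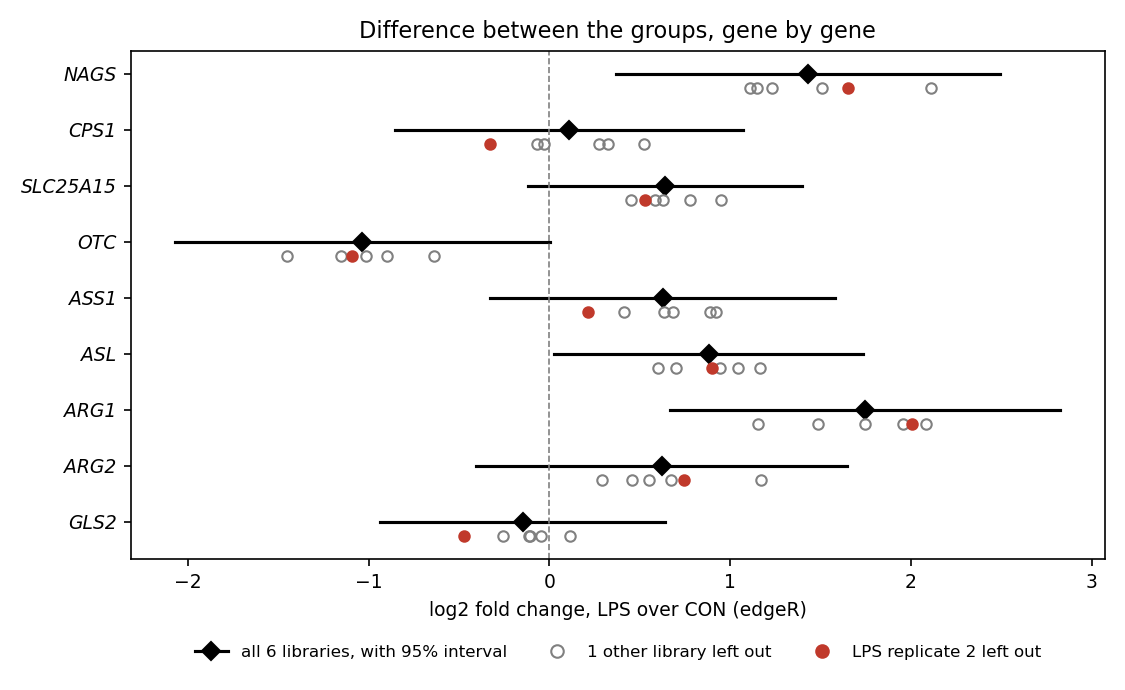
Log2 fold change of LPS over CON (horizontal axis) for each gene from edgeR, with diamonds and bars for all 6 libraries and their 95% intervals and circles for fits with 1 library left out (filled red where it was LPS replicate 2). The ARG1 diamond is at 1.75 and the OTC diamond at -1.03, and for both genes the circles of all 6 reduced fits stay on the same side of 0.

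Per length, the order of the genes differed between the groups. In the CON group the mean level in CPM per kb of exon was 215 for ASS1, 135 for CPS1, 127 for ASL, 76.0 for ARG1, 57.2 for OTC, 30.8 for GLS2, 28.4 for NAGS, 25.0 for SLC25A15 and 3.63 for ARG2. The CON ranges of ASS1 and CPS1, of CPS1 and ASL, of ASL and ARG1, and of ARG1 and OTC each overlapped, as did those of GLS2, NAGS and SLC25A15, while OTC at 45.2 to 67.9 overlapped NAGS at 16.3 to 49.2 but not GLS2 at 26.0 to 34.9. ARG2 was below all others. ASS1 ranked 163 and CPS1 ranked 248 among all 12774 tested genes by this measure, which depends on the annotated exon length.

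In the LPS group ASS1 remained highest at 333 CPM per kb, and ARG1 followed at 255, ASL at 235 and CPS1 at 146. NAGS came next at 76.9, then SLC25A15 at 39.0, GLS2 at 27.88, OTC at 27.85 and ARG2 at 5.56. Among the 9 genes ARG1 went from rank 4 in the CON group to rank 2 in the LPS group and OTC from rank 5 to rank 8, and among all tested genes OTC went from rank 608 to rank 1423 and ARG1 from rank 447 to rank 174. In the LPS group the ranges of ASS1, ARG1, ASL and CPS1 overlapped, as did those of SLC25A15, GLS2 and OTC, while NAGS at 51.9 to 109 overlapped only CPS1 at 101 to 224.

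**Figure D3:**
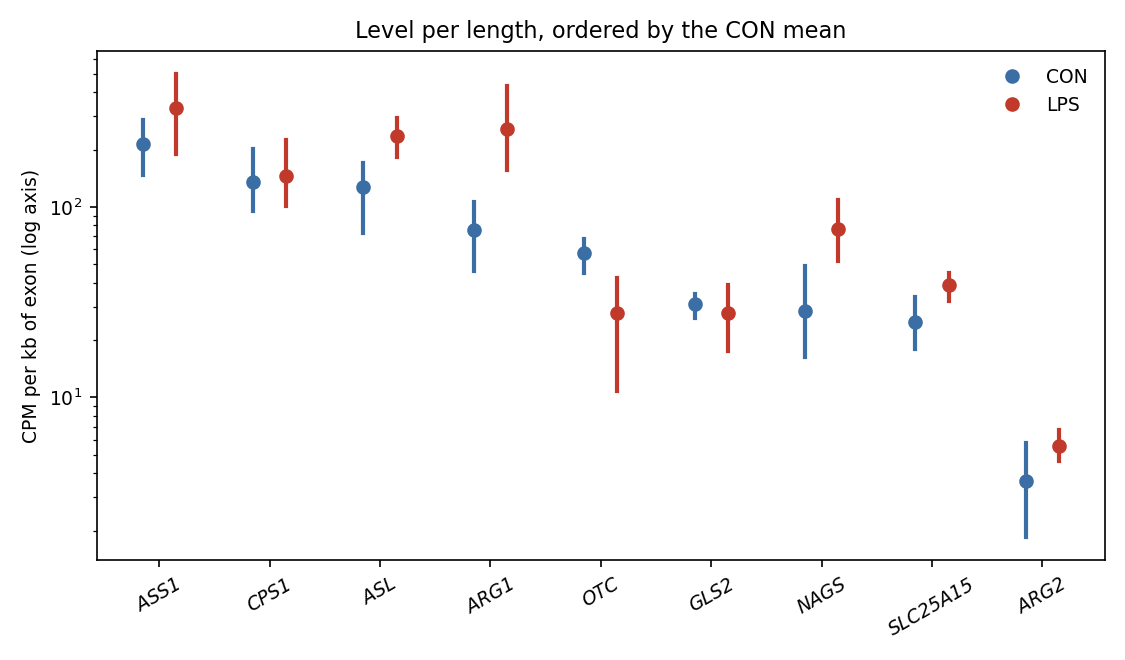
Level in CPM per kb of exon on a log axis, with points for the group mean and bars from the lowest to the highest of the 3 libraries in the CON group (blue) and the LPS group (red). Genes are ordered by the CON mean, and in the LPS group OTC stands at 27.85 against 57.2 and ARG1 at 255 against 76.0.

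Because OTC and ARG1 differed in opposite directions, their ratio within a library, which is free of the scaling, was computed after their values had been seen and is given without a test. The ratio of ARG1 to OTC counts was 1.88, 3.58 and 6.43 in the CON libraries against 46.2, 14.0 and 27.9 in the LPS libraries. Since ARG1, NAGS and ASL were wholly higher and OTC wholly lower in the LPS libraries on a common scale, the absence of overlap in their ratios to OTC follows from those values and adds nothing to them. The ratios give the level relative to OTC in each library, and those of LPS replicate 1 rest on its 110 OTC counts. The ratio of NAGS to OTC was 0.182, 0.259 and 0.827 in the CON libraries against 7.67, 1.29 and 1.26 in the LPS libraries. For ASL to OTC the values were 0.778, 1.71 and 2.72 against 19.6, 5.42 and 3.12. CPS1 to OTC and ASS1 to OTC overlapped, since LPS replicate 3 had 7.31 and 11.1 where the CON libraries reached 9.40 and 12.1.

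**Figure D4:**
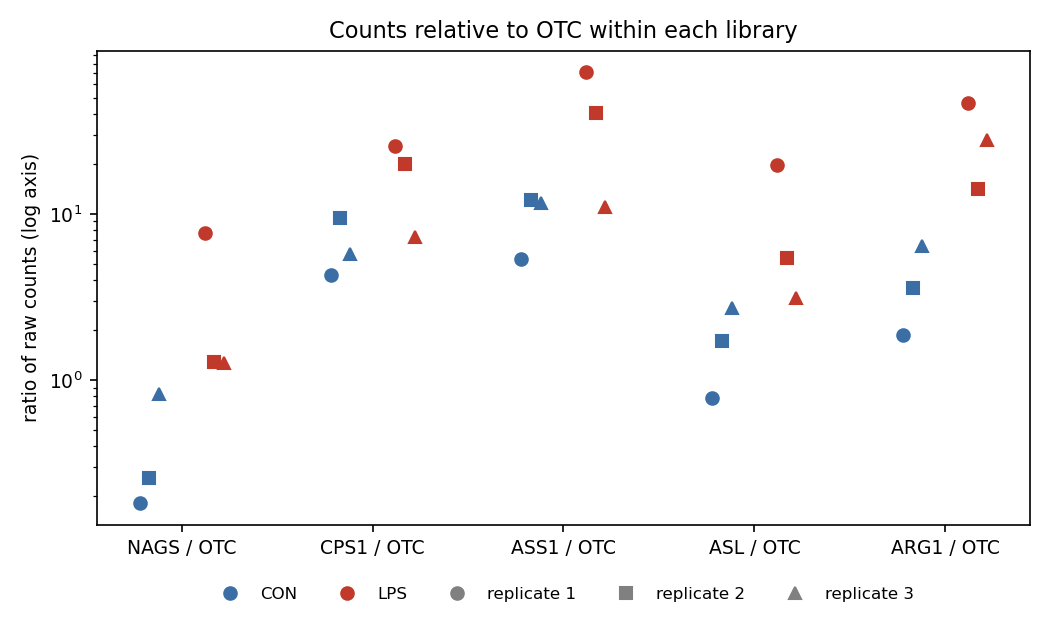
Ratio of raw counts to OTC within each library on a log axis, with CON in blue, LPS in red and marker shapes for replicates. The ARG1 to OTC ratio runs from 1.88 to 6.43 in the CON libraries and from 14.0 to 46.2 in the LPS libraries, and CPS1 and ASS1 overlap through LPS replicate 3.

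Together the 5 enzymes of the cycle proper, CPS1, OTC, ASS1, ASL and ARG1, took 0.219%, 0.392% and 0.271% of all counts in the CON libraries against 0.413%, 0.611% and 0.349% in the LPS libraries. CON replicate 2 lay above LPS replicate 3, so the groups overlapped as shares of the raw totals. On the TMM scale the summed level was 2020, 3630 and 2771 CPM in the CON libraries against 3919, 5504 and 4761 CPM in the LPS libraries, without overlap. The separation of this sum thus depended on the scaling, and the sum was not tested.

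Genes around the cycle were taken from 7 lists written from general knowledge, but with earlier results of these data known. They held 128 genes that are not members, of which 113 had a row and 103 were tested. EdgeR called 0 of the 103. At an unadjusted p below 0.05 10 were higher and 14 lower, beside 6.18% and 6.33% of all tested genes. Those shares also stand beside the counts of each list below. The median log2 fold change was -0.25. The number called was 9 with DESeq2, beside 2.81% of all genes, and 20 with edgeR when LPS replicate 2 was left out, beside 7.20%.

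Among 17 tested genes of ammonia and glutamate handling, 5 were higher and 3 lower at an unadjusted p below 0.05, with a median log2 fold change of -0.09. SDS, serine dehydratase, which frees ammonia from serine, had 3.40, 6.41 and 8.60 CPM in the CON libraries against 831, 46.0 and 253 CPM in the LPS libraries, a log2 fold change of 5.94 ± 1.01 (SE, edgeR adjusted p = 0.0851). HAL, histidine ammonia-lyase, which frees ammonia from histidine, had 35.7, 69.8 and 60.1 CPM against 505, 146 and 620 CPM, a log2 fold change of 2.94 ± 0.54 (SE, edgeR adjusted p = 0.0937). CAD, which makes carbamoyl phosphate from glutamine for pyrimidines in the cytosol, had a log2 fold change of 1.72 ± 0.47 (SE, edgeR adjusted p = 0.218) where CPS1 had 0.11. In all 3 genes every LPS library was above every CON library.

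Singled out after their values were seen, GLUD1, the glutamate dehydrogenase that releases ammonia from glutamate in mitochondria, had 492, 485 and 385 CPM in the CON libraries against 172, 309 and 221 CPM in the LPS libraries, a log2 fold change of -0.96 (SE 0.33). The aspartate transaminases, which form the aspartate that ASS1 uses, had differences of opposite sign, with a log2 fold change of 1.08 (SE 0.36) for the cytosolic GOT1 and -0.85 (SE 0.36) for the mitochondrial GOT2. SLC25A13, the citrin carrier that brings aspartate out of the mitochondrion, had a log2 fold change of -1.11 (SE 0.41), with every LPS library below every CON library as for GLUD1 and GOT2. All 4 genes had an unadjusted p below 0.05 in edgeR, and 0 of the 4 were called with all 6 libraries.

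Of the 20 tested genes of arginine, ornithine, proline and polyamine metabolism, 0 were higher and 1 was lower at an unadjusted p below 0.05, and their median was -0.01. The lower gene was PYCR1, which makes proline, with 68.7, 98.1 and 44.3 CPM in the CON libraries against 18.3, 30.9 and 15.9 CPM in the LPS libraries, a log2 fold change of -1.70 ± 0.40 (SE, edgeR adjusted p = 0.161). The arginine-using nitric oxide synthase NOS2, named here after its values were seen, reached at most 5.31 CPM in any library and a log2 fold change of 0.08 (SE 0.52). That value rests on 194 counts over all 6 libraries. By RT-qPCR the paper reported higher mRNA of this gene, under the name iNOS, in the livers of the LPS group. Why the measurements differ was not tested.

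In the transport list 3 of 18 tested genes were higher and 4 lower at an unadjusted p below 0.05, with a median of 0.21. SLC38A1, a glutamine importer, had 6.35, 6.09 and 8.21 CPM in the CON libraries against 23.3, 17.8 and 76.1 CPM in the LPS libraries, a log2 fold change of 2.51 ± 0.55 (SE, edgeR adjusted p = 0.129). SLC38A4, an amino acid transporter of hepatocytes, had 282, 206 and 188 CPM against 79.6, 152 and 110 CPM, a log2 fold change of -0.99 ± 0.35 (SE, edgeR adjusted p = 0.294). The glutamate transporter SLC1A2, at 1.92 ± 0.59 (SE, edgeR adjusted p = 0.244), overlapped through LPS replicate 2. For the 5 tested genes of bicarbonate supply and CPS1 modification 0 were higher and 0 lower at an unadjusted p below 0.05, with a median of -0.42.

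Among 20 tested regulators of urea cycle genes, 2 were higher and 3 lower at an unadjusted p below 0.05, with a median of 0.07. PPARA, the fatty acid receptor that also acts on amino acid catabolism, had a log2 fold change of -0.92 ± 0.35 (SE, edgeR adjusted p = 0.329), and the xenobiotic receptor NR1I2 had -1.33 ± 0.52 (SE, edgeR adjusted p = 0.347). CEBPB, of the C/EBP family that binds urea cycle promoters, had 167, 338 and 236 CPM in the CON libraries against 738, 228 and 741 CPM in the LPS libraries, a log2 fold change of 1.20 ± 0.48 (SE, edgeR adjusted p = 0.353). In CEBPB LPS replicate 2 was inside the CON range. A part of CEBPB in the differences of the urea cycle genes was not tested.

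The urea cycle is a periportal function, and the other markers of that zone did not share 1 direction. Of 12 tested periportal genes, 2 were higher (SDS and HAL, which are in the ammonia list too) and 1 was lower at an unadjusted p below 0.05, with a median of -0.73. The lower gene was HSD17B6, a steroid dehydrogenase, with a log2 fold change of -1.92 ± 0.58 (SE, edgeR adjusted p = 0.237). Of 17 tested pericentral genes 1 (SLC1A2, also in the transport list) was higher and 3 were lower at an unadjusted p below 0.05, with a median of -0.44. CYP7A1, the rate-limiting enzyme of bile acid synthesis, had 16.3, 21.3 and 16.0 CPM in the CON libraries against 0.436, 2.29 and 0.273 CPM in the LPS libraries, a log2 fold change of -4.25 ± 0.68 (SE, edgeR adjusted p = 0.0668). LECT2, a secreted hepatocyte protein, had a log2 fold change of -1.78 ± 0.47 (SE, edgeR adjusted p = 0.204).

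**Figure D5:**
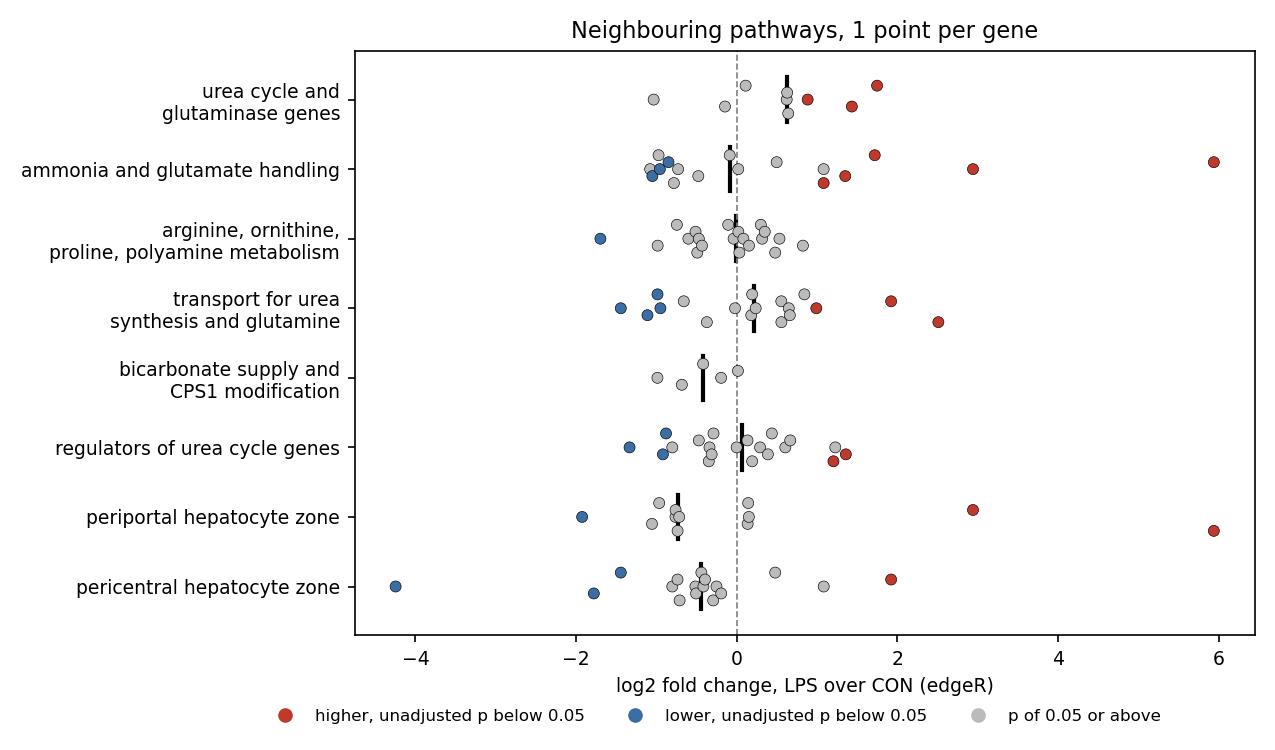
Log2 fold change of LPS over CON from edgeR (horizontal axis) for each tested gene of the urea cycle and of 7 neighbouring lists, with black bars for list medians and colour for an unadjusted p below 0.05 (red higher, blue lower, grey neither). The median of the urea cycle and glutaminase genes is 0.63 and those of the other lists lie between -0.73 and 0.21, with SDS at 5.94 and CYP7A1 at -4.25 as the outermost points.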

How the data were processed

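For the input libraries the authors deposited 1 table of raw counts, with the coordinates and exon lengths of 31908 pig Ensembl genes. Per the labels, a directional RNA kit was used, and the submitters' processing notes name cutadapt 1.9.3 and HISAT2. The counting program, the pig genome build and the handling of strand and of multiply mapped reads were not given in the sources used here. Columns were assigned by the group and replicate number in their headers, and CON replicates 1 and 2 have 2 sequencing entries each but 1 column. The m6A-IP libraries were not analysed here.

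Counts were fitted over all genes in R 4.3.3 with edgeR 4.0.16 (filterByExpr, minimum count 10, TMM, robust quasi-likelihood fit), and p-values were Benjamini-Hochberg adjusted over the 12774 genes tested. A call needed more than a 1.5-fold difference at an adjusted p below 0.05. Standard errors (SE) were obtained from each log2 fold change and its F statistic, and the 95% intervals from the t distribution. Scripts were tested on simulated data. The alternatives were RLE factors, total counts, 2 other filters, DESeq2 1.42.0, limma-voom (limma 3.58.1), a replicate block, each library left out and 2 other fold thresholds.

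The members and lists were chosen with earlier results of these data known. Named genes were all members and, from each list, up to 3 genes with the smallest p among those with an unadjusted p below 0.05. GLUD1, GOT1, GOT2, SLC25A13, NOS2 and the cell type markers named in the text fall outside this rule and were picked after their values were seen.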

Additional observations from a re-analysis of the deposited data

How the results depend on the processing

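With edgeR and all 6 libraries 0 of the 9 genes and 0 of the 103 list genes were called. The counts were 2 and 13 without the filter on low counts and 1 and 9 with DESeq2, and leaving out a library gave 0 to 1 and 0 to 20, the upper values without LPS replicate 2. Over all tested genes the calls went from 7 to 885, 416 and 982 in those fits, to 12 with total counts, to 0 with at least 10 counts in every library and to 0, 1 or 58 without another library. DESeq2 with a library left out, chosen after the data were seen, called ARG1 and NAGS without CON replicate 3 (1.67% of all genes called) or LPS replicate 2 (10.9%), ARG1 without LPS replicate 1 (1.15%), and neither without CON replicate 1 (0.815%), CON replicate 2 (1.17%) or LPS replicate 3 (2.13%). The log2 fold changes of OTC, ASS1, ASL, ARG1, ARG2, NAGS and SLC25A15 kept their sign in all 15 alternatives. Of these, the 2 other fold thresholds reuse the main fit and could not change a sign. That of CPS1 ranged from -0.33 to 0.52 and that of GLS2 from -0.47 to 0.11 when a library was left out, and the cause was not tested. Total count scaling moved the median of all tested genes from 0.01 to -0.12. All 7 genes called were higher, and with RLE factors 8 were higher and 1 lower. Of the 9 genes, those wholly above the CON range numbered 3, beside 6.52% of all tested genes, and 2 with total counts (4.81%). They numbered 5 without CON replicate 3 (11.7%) or LPS replicate 3 (12.7%), where fewer libraries make separation easier for every gene. Depth limited ARG2 most, with 30 counts in CON replicates 1 and 2.

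The sources used here describe no pairing of the libraries, so the replicate numbers were not taken as pairs. Correlations of deviations across genes were -0.239, 0.219 and 0.0289 for libraries with the same number. For libraries with different numbers they lay between -0.251 and 0.22. With 3 libraries per group these values cannot decide whether the libraries were paired. With a replicate block edgeR called 51 genes, 0 of the 9 and 1 of the 103 list genes.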
